A study of Mus musculus with 13 samples.

Results

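Gata1, Gata2, Zfpm1, Tal1, Lyl1, Lmo2, Klf1, Gfi1b and Itga2b are 9 genes of stem cells and of the erythroid, megakaryocyte and mast cell lineages, and they were read here in common lymphoid progenitors (CLP), cells of the bone marrow that give rise to lymphocytes. The genes were chosen by name, and each matched 1 row of the 24072 in the deposited files. RNA was sequenced from wild-type C57BL/6 mouse CLP, separated by flow cytometry for the surface proteins Ly6D and Gfra2, with 6 libraries for the Ly6D-Gfra2- fraction, 4 for Ly6D+Gfra2- and 3 for Ly6D+Gfra2+. No group carried an allele or a treatment, and the age of the mice, the other markers of the sort and whether animals were pooled are not given in the sources used here. Library names begin with P or T, letters whose meaning is not stated. P stands in replicates 1 to 3 of Ly6D-Gfra2- and in replicates 1 and 2 of Ly6D+Gfra2-, and T in the other 8 libraries, all 3 of Ly6D+Gfra2+ included. Names with T also carry an S with the replicate number. Libraries of different groups share this tag, and its meaning is not stated either. The fit reported has no term for it, and a replicate block is among the alternatives.

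The proteins of this group work together on DNA. Gata1 and Gata2 are zinc finger factors that bind GATA motifs, and Zfpm1 (also called Fog1) is the cofactor that Gata1 needs in red cell and platelet precursors. Tal1 and Lyl1 are related basic helix-loop-helix factors that pair with E proteins such as Tcf3, and the adaptor Lmo2 joins them, through Ldb1, to a GATA factor. Klf1 and Gfi1b act with these complexes in the erythroid and megakaryocyte lineages, and Itga2b encodes the integrin chain CD41, a surface marker of megakaryocytes and of some early progenitors. In the lymphoid lineages Tal1, Lyl1 and Lmo2 are best known as genes whose misplaced expression drives T-cell leukemia.

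GATA motifs were looked for next to the start sites of the 9 genes, because 2 of the 9 are factors that bind them. The letters searched were GATA with A or T directly before and A or G directly after, on both strands, in the 250 bases before each annotated start (RefSeq, GRCm38.p6). Windows were on hand for 8 of the 9 genes, Lmo2 being the exception. A match lay in 3 of 10 windows, those of Gfi1b, Tal1 and Klf1, while 26.5% of 32851 windows of the same length held one. The 3 windows are printed 5′ to 3′ on the strand of the gene, with the match in capitals. They are chr2:28621983-28622232 on the minus strand for Gfi1b, chr4:115056176-115056425 on the plus strand for Tal1 and chr8:84901732-84901981 on the plus strand for Klf1.
Gfi1b: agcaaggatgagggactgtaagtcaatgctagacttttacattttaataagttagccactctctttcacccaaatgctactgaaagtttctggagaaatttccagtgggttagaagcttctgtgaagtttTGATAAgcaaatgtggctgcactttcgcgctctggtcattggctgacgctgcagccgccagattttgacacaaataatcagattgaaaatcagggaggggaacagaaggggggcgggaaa
Tal1: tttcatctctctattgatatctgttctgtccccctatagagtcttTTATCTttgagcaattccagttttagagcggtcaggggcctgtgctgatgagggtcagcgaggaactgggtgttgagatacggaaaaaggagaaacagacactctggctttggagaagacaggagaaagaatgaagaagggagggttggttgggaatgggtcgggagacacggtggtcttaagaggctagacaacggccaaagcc
Klf1: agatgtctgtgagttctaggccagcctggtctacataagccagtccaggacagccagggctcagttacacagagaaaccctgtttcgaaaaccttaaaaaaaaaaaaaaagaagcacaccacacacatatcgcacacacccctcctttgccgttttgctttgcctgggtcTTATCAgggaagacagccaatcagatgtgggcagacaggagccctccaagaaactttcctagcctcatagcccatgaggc
The match begins 120 bases before the annotated start in Gfi1b, 205 in Tal1 and 80 in Klf1. A match is a string of letters, and binding was not measured in these libraries.

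Total counts ran from 6892728 to 23705975 per library, and between 10837 and 13969 genes had a count. By group these were 12904 to 13969 genes in Ly6D-Gfra2-, 11636 to 13364 in Ly6D+Gfra2- and 10837 to 12369 in Ly6D+Gfra2+. Levels are given as CPM, counts per 1000000 of the library size scaled by edgeR's TMM method. The sort markers matched the labels in 12 of 13 libraries. The exception was labelled Ly6D-Gfra2- replicate 3, where Ly6d stood at 213 CPM, a level of the Ly6D+ libraries (158 to 507 CPM), while the other 5 of its group had 0.623 to 8.30 CPM. It also had the highest summed level of 22 erythroid genes, 637 CPM. Ly6D-Gfra2- replicate 5 had 141 CPM of Hbb-bs, a beta-globin gene, and 177 CPM of S100a9, a gene of granulocytes. Values without these 2 libraries are given for Lmo2, for the erythroid list and for the list genes called. The labels do not say whether replicates are separate animals, so a p-value here speaks only of the spread among these libraries.

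Lmo2, Lyl1, Gfi1b and Tal1 had counts in all 13 libraries, and the other 5 genes lay at or near 0 in many of them. Genes are compared with each other only per kilobase of transcript, using GENCODE M21 lengths. In Ly6D-Gfra2- cells the means were 126.9 ± 29.9 CPM per kb for Lmo2, 102.1 ± 22.6 for Lyl1, 28.0 ± 22.3 for Gfi1b and 8.74 ± 3.12 for Tal1 (SD, n = 6). Zfpm1, Klf1, Gata2, Itga2b and Gata1 followed at 1.94, 1.37, 0.964, 0.309 and 0.217 CPM per kb. Lmo2 and Lyl1 differed by less than their spread there, as did Gfi1b and Tal1 and all neighbours among the 5 low genes. In Ly6D+Gfra2- cells Lyl1 came first at 80.9 ± 14.97, then Lmo2 at 63.5 ± 28.0, Gfi1b at 22.8 ± 18.9 and Tal1 at 7.44 ± 5.14 CPM per kb (SD, n = 4), and Lyl1 and Lmo2 again differed by less than their spread. In Ly6D+Gfra2+ cells Lyl1 stood at 89.3 ± 51.5 and Lmo2 at 42.6 ± 14.5 CPM per kb (SD, n = 3), and these ranges of 1 SD overlapped. Klf1 (7.69 ± 13.3), Gfi1b (7.29 ± 4.30), Tal1 (5.25 ± 3.67) and Zfpm1 (4.81 ± 7.45) followed there and differed by less than their spread. Of the 9 genes, 8 passed the filter on low counts and were tested, and Gata1 was not.

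**Figure D1:**
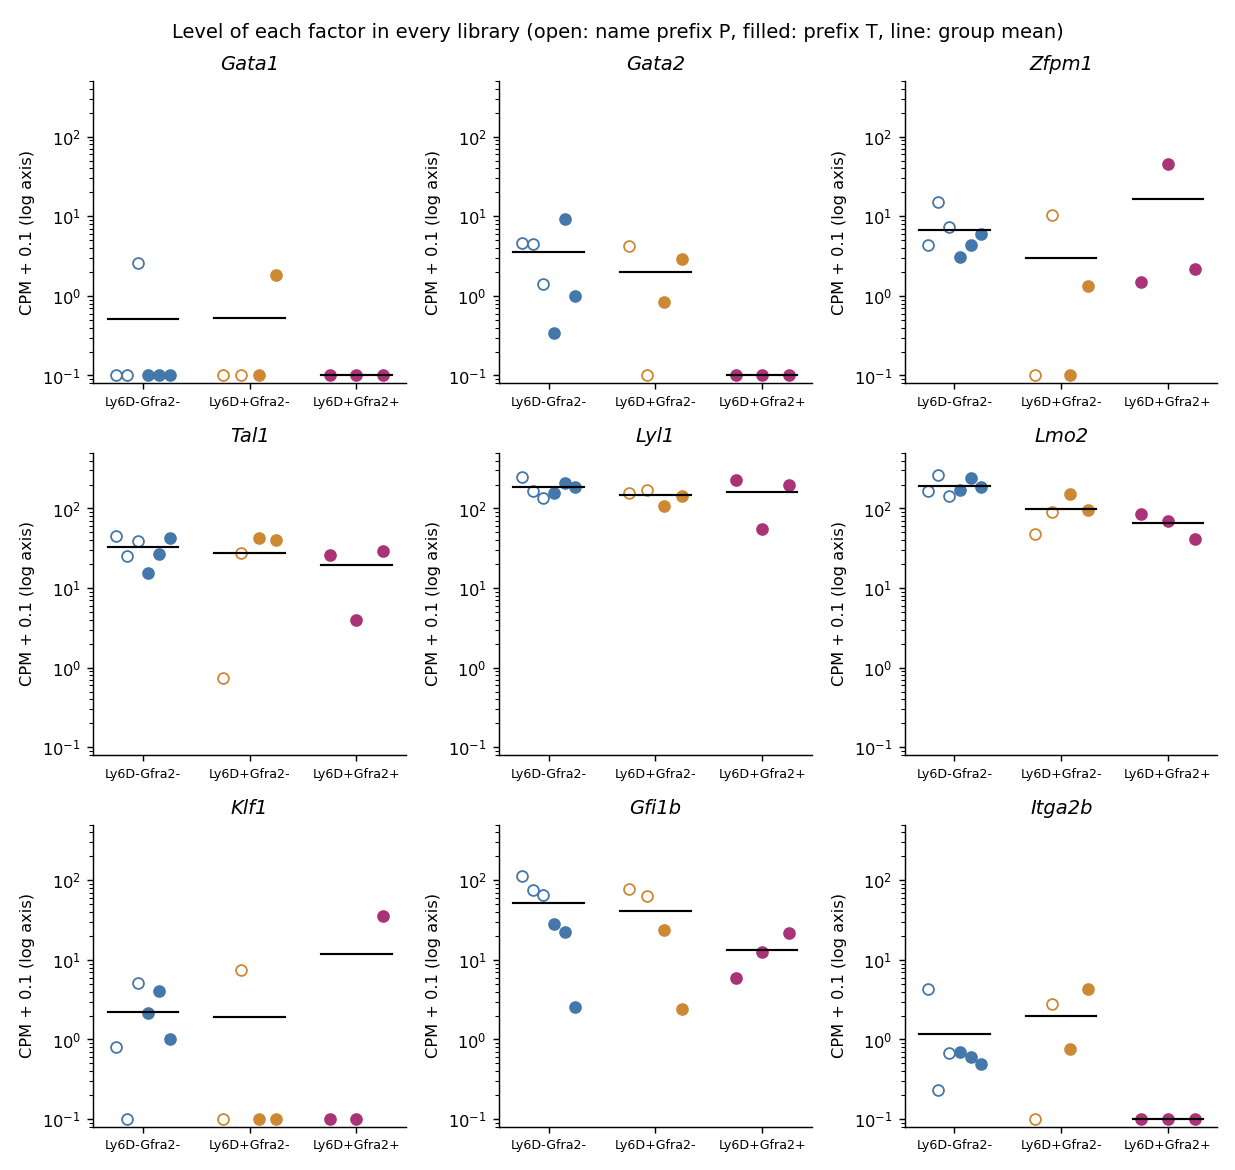
Level of each of the 9 genes in CPM + 0.1 on a log axis, 1 point per library, in the 3 sorted groups, with open points for library names with P, filled points for T and a line at the group mean. Lmo2 steps down from left to right, Lyl1 stays within 55.4 to 251 CPM, and Gata1, Gata2 and Itga2b lie at 0 CPM in all 3 Ly6D+Gfra2+ libraries.

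The adaptor Lmo2 (NM_001142336, GRCm38 chromosome 2, 103957903 to 103981878) was the one member of the 8 tested that passed the test in any of the 3 comparisons. Its level in Ly6D-Gfra2- replicates 1 to 6 was 164, 260, 142, 173, 239 and 188 CPM. In Ly6D+Gfra2- replicates 1, 2, 5 and 6 it was 48.3, 91.2, 153 and 96.1 CPM. In Ly6D+Gfra2+ replicates 4, 5 and 6 it was 84.4, 70.1 and 41.0 CPM. All 3 Ly6D+Gfra2+ libraries lay below all 6 Ly6D-Gfra2- libraries. The middle group overlapped both, through replicate 5 (153 CPM) above the lowest Ly6D-Gfra2- library and through replicate 1 (48.3 CPM) among the Ly6D+Gfra2+ values. That lowest library, at 142 CPM, was the one labelled replicate 3, and with it left out Ly6D+Gfra2- no longer overlapped Ly6D-Gfra2-. The share of all genes that separate without that library was not computed.

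Lmo2 averaged 194 ± 45.7 CPM (SD, n = 6) in Ly6D-Gfra2-, 97.1 ± 42.9 (SD, n = 4) in Ly6D+Gfra2- and 65.2 ± 22.1 (SD, n = 3) in Ly6D+Gfra2+. Between Ly6D+Gfra2+ and Ly6D-Gfra2- it fell by 1.77 on the log2 scale (SE 0.38), with an adjusted p of 0.0305 from edgeR's quasi-likelihood test (Benjamini-Hochberg over 12722 genes). This is 1 call among the 8 members tested, in a comparison that called 1.39% of all genes tested, 0.464% as lower and 0.928% as higher. By p it ranked 94 of 12722. Between Ly6D+Gfra2- and Ly6D-Gfra2- the log2 fold change was -1.05 (SE 0.31; edgeR adjusted p = 0.807, unadjusted p = 0.00345, rank 42). In that comparison edgeR called 0 of 12722 genes (0%), 599 had an unadjusted p under 0.05, and DESeq2 called 20 and limma voom 1. Between Ly6D+Gfra2+ and Ly6D+Gfra2- the value was -0.72 (SE 0.38; edgeR adjusted p = 0.424), where 0.409% of genes tested were called and no member was. The 3 comparisons share groups, so their values are not independent of each other.

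**Figure D2:**
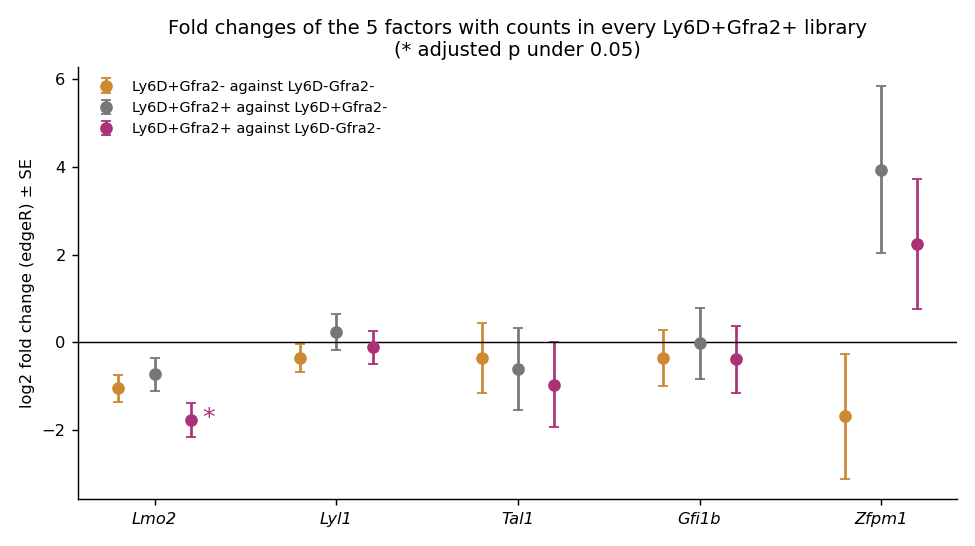
Log2 fold change with its standard error (edgeR) for the 5 genes with counts in every Ly6D+Gfra2+ library, in the 3 comparisons, the star marking an adjusted p under 0.05. The star stands at Lmo2 in Ly6D+Gfra2+ against Ly6D-Gfra2- (-1.77), while Lyl1 lies between -0.35 and 0.23 and the error bars of Zfpm1 are the longest.

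The call for Lmo2 depended on which libraries and which tool were used, and its direction did not among the alternatives run. The log2 fold change between Ly6D+Gfra2+ and Ly6D-Gfra2- was negative under all 24 alternatives, from -2.04 to -1.47, and passed the threshold under 13 of them. With libraries of name T alone it was -1.62 (adjusted p = 0.105). With both doubtful Ly6D-Gfra2- libraries, labelled replicates 3 and 5, left out together it was -1.76 (adjusted p = 0.134), and limma voom gave -1.80 (adjusted p = 0.0813). Leaving out 1 library gave adjusted p between 0.0246 and 0.102, with the call lost in 6 of 13 cases. Those were replicates 1 (0.0520), 4 (0.0609), 5 (0.102) and 6 (0.0663) of Ly6D-Gfra2- and replicates 5 (0.0561) and 6 (0.0525) of Ly6D+Gfra2+. Between Ly6D+Gfra2- and Ly6D-Gfra2-, the log2 fold change was -1.43 (adjusted p = 0.750) with name P and -0.68 (adjusted p = 0.9999) with name T. A test of whether the change differed between P and T gave an adjusted p of 0.779 for Lmo2. Fewer cells with the transcript and less transcript per cell cannot be told apart in such bulk libraries, for Lmo2 or for any gene described here.

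**Figure D3:**
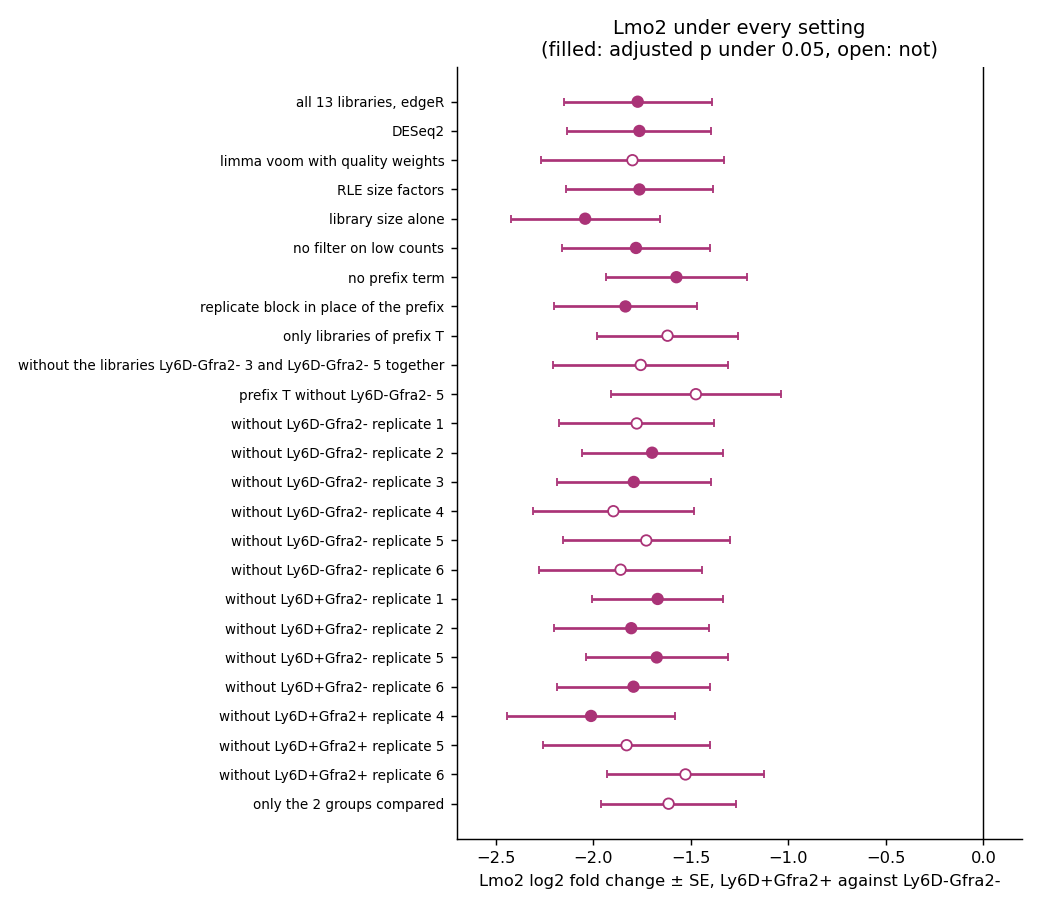
Log2 fold change of Lmo2 with its standard error between Ly6D+Gfra2+ and Ly6D-Gfra2- under the analysis reported and 24 alternatives, with filled points for an adjusted p under 0.05. All points lie left of 0, between -2.04 and -1.47, and 11 of the 24 alternatives are open.

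Lyl1 and Tal1, the helix-loop-helix partners that Lmo2 joins, did not pass the test in any comparison. Lyl1 (NM_008535, chromosome 8, 84701423 to 84704716) was at 251, 168, 137, 157, 207 and 184 CPM in Ly6D-Gfra2-, at 158, 171, 109 and 144 CPM in Ly6D+Gfra2-, and at 230, 55.4 and 196 CPM in Ly6D+Gfra2+. Ly6D+Gfra2+ replicate 5 was the lowest of all 13 libraries, and the other 2 of its group lay among the Ly6D-Gfra2- values. The log2 fold change of Lyl1 was -0.35 (SE 0.32) between Ly6D+Gfra2- and Ly6D-Gfra2-, 0.23 (SE 0.41) between the Ly6D+ groups and -0.11 (SE 0.37) between Ly6D+Gfra2+ and Ly6D-Gfra2-. The last became 0.29 without Ly6D+Gfra2+ replicate 5. The end of Lyl1 overlaps that of Nfix by a few bases, and the counting strand is not stated.

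Tal1 (NM_001287388, chromosome 4, 115056426 to 115071755) was at 45.0, 25.5, 39.0, 15.5, 26.8 and 42.4 CPM in Ly6D-Gfra2-. In Ly6D+Gfra2- it was at 0.649, 27.6, 41.9 and 40.1 CPM, and in Ly6D+Gfra2+ at 25.8, 3.83 and 28.7 CPM. Ly6D+Gfra2- replicate 1 and Ly6D+Gfra2+ replicate 5 were far below the rest, and the groups overlapped in every comparison. The group means were 32.4 ± 11.6 (SD, n = 6), 27.6 ± 19.0 (SD, n = 4) and 19.4 ± 13.6 CPM (SD, n = 3). The log2 fold changes were -0.35 (SE 0.80), -0.61 (SE 0.94) and -0.96 (SE 0.98), in the order given for Lyl1. Without Ly6D+Gfra2- replicate 1 the first became 0.20, and within name T it was 0.54.

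Gata2 and Itga2b were listed at 0 counts in every Ly6D+Gfra2+ library. Gata2 (NM_008090, chromosome 6, 88193891 to 88207032), the GATA factor of stem and progenitor cells and of mast cells, was at 4.58, 4.36, 1.31, 0.238, 9.26 and 0.908 CPM in Ly6D-Gfra2-. In Ly6D+Gfra2- it was at 4.09, 0, 0.747 and 2.84 CPM. It thus had counts in all 6 Ly6D-Gfra2- libraries, with 2 counts in replicate 4, in 3 of 4 Ly6D+Gfra2- libraries and in none of the 3 Ly6D+Gfra2+ libraries. Against 3 counts over the 3 Ly6D+Gfra2+ libraries together (0.114 CPM), it was at least 31.5-fold lower there than in Ly6D-Gfra2- and at least 15.6-fold lower than in Ly6D+Gfra2-. Leaving out 1 library moved these bounds between 20.5 and 38.3 and between 7.84 and 24.1, the lowest of the latter without Ly6D+Gfra2- replicate 1. Such bounds cover counting error only. They do not cover differences in how many genes a library detected, and the part of those differences in the zeros was not tested. The test missed the threshold in both comparisons (edgeR adjusted p = 0.155 and 0.245), and DESeq2 passed the first (adjusted p = 0.0242).

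Itga2b (NM_010575, chromosome 11, 102453297 to 102469883) was at 4.18, 0.133, 0.584, 0.595, 0.496 and 0.389 CPM in Ly6D-Gfra2- and at 0, 2.69, 0.653 and 4.26 CPM in Ly6D+Gfra2-. It was at least 7.66-fold lower in Ly6D+Gfra2+ than in Ly6D-Gfra2- and at least 16.1-fold lower than in Ly6D+Gfra2-. Of the first bound 59.2% of the counts came from Ly6D-Gfra2- replicate 1, and the bound was 3.57 with that library left out. Leaving out 1 library moved the second bound between 10.4 and 22.2, the lowest without Ly6D+Gfra2+ replicate 6 and the highest without Ly6D+Gfra2- replicate 1. Neither comparison passed (edgeR adjusted p = 0.285 and 0.267). All Ly6D+Gfra2+ libraries lay below all Ly6D-Gfra2- libraries for Gata2 and Itga2b, as for Lmo2, while 6.19% of genes tested did so and 4.03% lay above without overlap. For Gata2 and Itga2b this separation is not resolved at this depth. The lowest Ly6D-Gfra2- libraries held 2 counts of Gata2 (0.238 CPM) and 3 counts of Itga2b (0.133 CPM), below the 0.325 to 0.359 CPM that 3 counts are worth in single Ly6D+Gfra2+ libraries, and both genes entered the test only through the groups in which they have counts. No member tested was free of overlap in the other 2 comparisons, where 0.951% and 5.71% of genes tested were lower and 0.582% and 4.0% higher without overlap. Between Ly6D+Gfra2- and Ly6D-Gfra2- the log2 fold change was -0.84 (SE 1.48) for Gata2 and 1.11 (SE 1.65) for Itga2b (edgeR adjusted p = 0.999 for both).

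Gata1 (NM_008089, chromosome X, 7959260 to 7976663), the master factor of red cell formation, was listed at 0 in 11 of 13 libraries. The library labelled Ly6D-Gfra2- replicate 3 had 51 counts (2.48 CPM) and Ly6D+Gfra2- replicate 6 had 17 counts (1.73 CPM). All counts in each of these groups thus came from 1 library. Klf1 (NM_010635, chromosome 8, 84901982 to 84905291), the Kruppel-like factor that turns on beta-globin, was at 0.696, 0, 4.96, 2.02, 3.97 and 0.908 CPM in Ly6D-Gfra2-. In Ly6D+Gfra2- it had counts only in replicate 2 (7.31 CPM), and in Ly6D+Gfra2+ only in replicate 6 (35.3 CPM). The highest Klf1 level of all libraries was therefore in a Ly6D+Gfra2+ library whose group was otherwise at 0. The log2 fold changes of 4.33 (SE 3.31; edgeR adjusted p = 0.615) against Ly6D+Gfra2- and 3.04 (SE 2.15; edgeR adjusted p = 0.543) against Ly6D-Gfra2- rested on that library. Leaving it out put Ly6D+Gfra2+ at 0, and leaving out Ly6D+Gfra2- replicate 2 put that group at 0, so 1 library in each group sets which is the higher.

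The levels of a list of erythroid genes were summed for each library. Of 23 listed, 22 were in the files, and their summed level ran from 120 to 637 CPM in Ly6D-Gfra2-, from 85.7 to 239 CPM in Ly6D+Gfra2- and from 22.2 to 148 CPM in Ly6D+Gfra2+. The highest library of the first group was the one labelled replicate 3, which also held the Gata1 counts. Replicate 5 came next at 610 CPM with Gata1 at 0, and the other 4 lay at or below 165 CPM. In the library labelled replicate 3, Slc4a1, the band 3 anion exchanger of red cells, was at 130 CPM and Epor, the erythropoietin receptor, at 11.2 CPM, while Epor was at most 0.0826 CPM in the other 12 libraries. Ly6D+Gfra2+ replicate 6, which held the Klf1 counts, had 47.7 CPM of Slc4a1, against 0.115 and 0 CPM in the other 2 of its group. Its Gata1 and Epor were both at 0. Other genes of the list did not follow Slc4a1. In Ly6D+Gfra2+ replicates 4, 5 and 6 Car2 was at 5.84, 54.3 and 24.9 CPM and Alas2 at 11.8, 8.86 and 1.84 CPM. The list sums there were 22.2, 114 and 148 CPM, with Klf1 at 0 in replicates 4 and 5. Ly6D+Gfra2- replicate 6, the other library with Gata1 counts, had 6.49 CPM of Slc4a1. The part of red cell precursors in the Gata1 and Klf1 values was not tested.

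**Figure D4:**
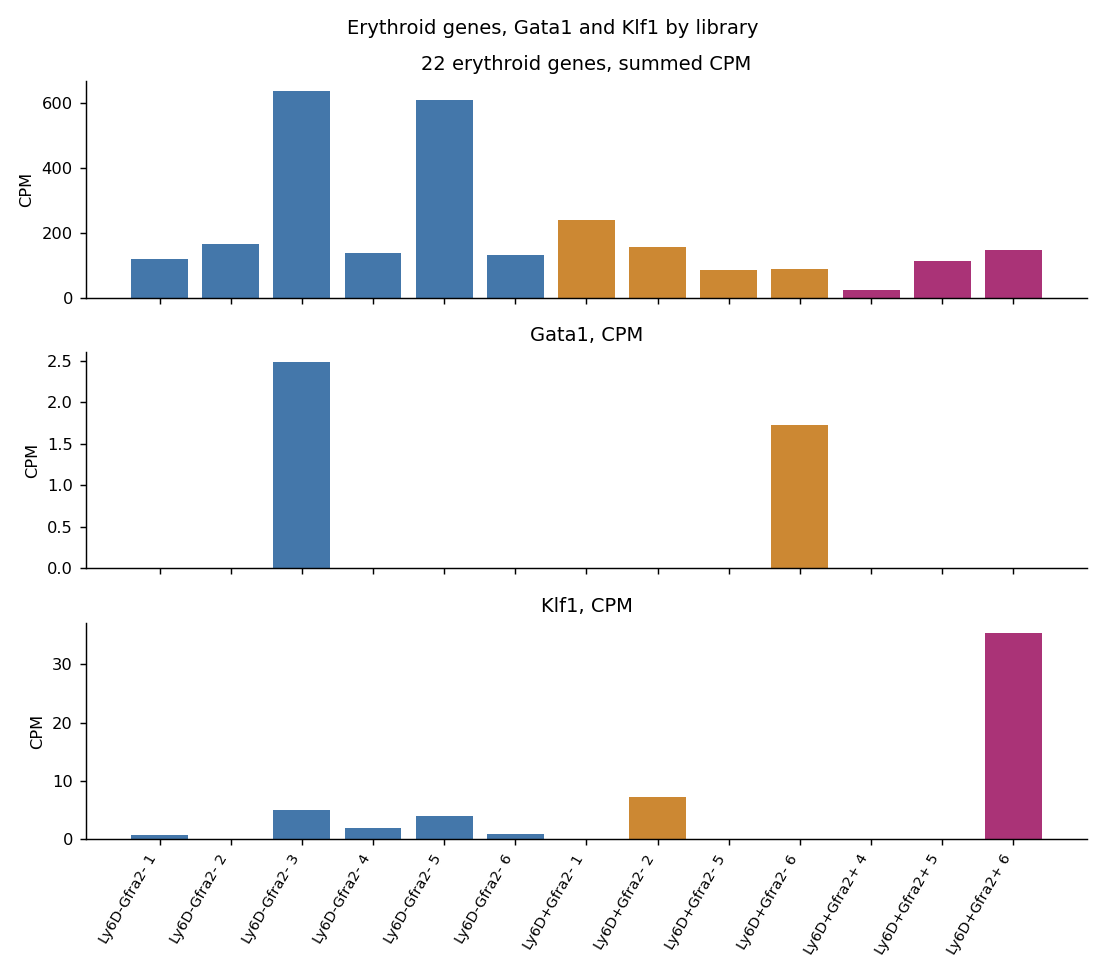
Summed CPM of 22 erythroid genes, CPM of Gata1 and CPM of Klf1 in each of the 13 libraries, coloured by group, on linear axes from 0. The library labelled Ly6D-Gfra2- replicate 3 has the tallest erythroid bar (637) and the tallest Gata1 bar (2.48), and the tallest Klf1 bar (35.3) is Ly6D+Gfra2+ replicate 6.

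Of the erythroid list 18 genes were tested, and 0 were called by edgeR in any comparison, with 3, 2 and 2 at an unadjusted p under 0.05. DESeq2 called 0, 2 and 1 of them, beside 20, 545 and 789 of 12231 genes, and limma voom 0. Their median log2 fold changes were -2.06 (Ly6D+Gfra2- against Ly6D-Gfra2-), -0.34 (Ly6D+Gfra2+ against Ly6D+Gfra2-) and -1.57 (Ly6D+Gfra2+ against Ly6D-Gfra2-), against -0.01, 0.03 and 0.01 over all genes tested. Negative values numbered 15, 10 and 16 of 18. These medians depended on the Ly6D-Gfra2- libraries labelled replicates 3 and 5, and the signs of the last 2 on replicate 5. Without both they were -0.12, 1.10 and 1.37, with 9, 7 and 8 of 17 genes negative. Without replicate 5 alone they were -0.72, 1.30 and 1.21, and without replicate 3 alone -1.29, -0.21 and -1.46. Without Ly6D+Gfra2+ replicate 6, the library with the Klf1 counts, the last was -5.59. The first median stayed negative over these choices of libraries, and the sign of the others turned where Ly6D-Gfra2- replicate 5 was left out. Of 17 megakaryocyte genes 8 were tested and 0 called, with medians of -0.74, -1.78 and -2.32. Pf4, Ppbp, Gp6, Clec1b and Rab27b, all genes of platelets or their precursors, were at 0 in all 13 libraries. Of 11 mast cell and basophil genes 5 were tested and 0 called, and Tpsb2, Tpsab1 and Cma1 were at 0 in all libraries. Summed mast cell and basophil levels ran from 7.34 to 27.6 CPM in Ly6D-Gfra2-, from 0.933 to 10.5 CPM in Ly6D+Gfra2- and from 0 to 11.3 CPM in Ly6D+Gfra2+, beside which the Gata2 values stand.

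Zfpm1 (NM_009569, chromosome 8, 122281856 to 122337862), the Gata1 cofactor, was at 4.28, 14.9, 7.15, 2.98, 4.22 and 5.84 CPM in Ly6D-Gfra2- and at 0, 10.3, 0 and 1.22 CPM in Ly6D+Gfra2-. In Ly6D+Gfra2+ it was at 1.37, 45.5 and 2.06 CPM, so replicate 5 gave 92.5% of that group's counts. The means were 6.56 ± 4.34 (SD, n = 6), 2.87 ± 4.96 (SD, n = 4) and 16.3 ± 25.3 CPM (SD, n = 3). The log2 fold change of 3.94 (SE 1.90; edgeR adjusted p = 0.386) between the Ly6D+ groups was 0.70 without that library. The value of 2.25 (SE 1.49; edgeR adjusted p = 0.506) against Ly6D-Gfra2- became -0.99. The library with the highest Zfpm1 in each of the 3 groups had Gata1 at 0. So did most libraries, 5 of 6 in Ly6D-Gfra2-, 3 of 4 in Ly6D+Gfra2- and all 3 in Ly6D+Gfra2+, so this does not bear on the pair.

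Gfi1b (NM_001160406, chromosome 2, 28609450 to 28621982), a repressor needed in red cell and platelet precursors, divided by the letter of the library name. In Ly6D-Gfra2- it was at 112, 75.7 and 64.5 CPM in the 3 P libraries and at 28.4, 22.5 and 2.46 CPM in the 3 T libraries. In Ly6D+Gfra2- it was at 76.8 and 63.1 CPM in P and at 23.6 and 2.33 CPM in T. The 3 Ly6D+Gfra2+ libraries, all T, had 5.84, 12.6 and 21.5 CPM, inside the range of the other T libraries. All 5 P libraries thus lay above all 8 T libraries, and the share of all genes that separate in this way was not computed. The term for the name gave T below P by a log2 difference of -2.32 (SE 0.65; edgeR adjusted p = 0.268). It did not pass, in a test that called 0.197% of genes. With that term in the fit, the log2 fold changes of Gfi1b between groups were -0.36 (SE 0.64), -0.03 (SE 0.81) and -0.39 (SE 0.76), in the order given for Lyl1. The group means of 51.0, 41.5 and 13.3 CPM mix the 2 kinds of library, and without the term the change from Ly6D-Gfra2- to Ly6D+Gfra2+ was -1.94.

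The other parts of the complexes were present in all groups. All 17 partners listed, among them Ldb1, the bridging protein, Cbfa2t3, the corepressor Eto2, Runx1, Fli1, Erg and the E proteins Tcf3, Tcf4 and Tcf12, passed the filter on low counts, and 0 of 17 were called by edgeR in any comparison. Their median log2 fold changes were 0.18, -0.19 and 0.07 in the same order. Runx1 had the smallest p between Ly6D+Gfra2+ and Ly6D-Gfra2-, at 0.67 (SE 0.20; edgeR adjusted p = 0.111). Its levels were 367 to 480 CPM in Ly6D-Gfra2- and 525, 744 and 499 CPM in Ly6D+Gfra2+, without overlap. Erg, at 386 to 683 CPM and at 732, 688 and 979 CPM in the same groups, did not overlap either (0.43, SE 0.23; edgeR adjusted p = 0.393). These are 2 of 17 partners, beside the 4.03% of all genes tested that lay above without overlap, and 0 partners lay below. Between the Ly6D+ groups 2 partners, Erg and Mta2, lay above without overlap in Ly6D+Gfra2+, and 2, Tcf3 and Tcf4, lay below. Of all genes tested 4.0% lay above and 5.71% below there. Tcf4 was at 553 to 793 CPM in Ly6D+Gfra2- and at 368, 406 and 463 CPM in Ly6D+Gfra2+ (-0.71, SE 0.21; edgeR adjusted p = 0.169). Tcf3 was at 152 to 268 CPM and at 151, 52.2 and 131 CPM, so its groups nearly touched. Between Ly6D+Gfra2- and Ly6D-Gfra2- only Cbfa2t3 did not overlap, and it was higher, as were 0.582% of all genes tested. Its groups nearly touched as well, at 454 to 644 CPM in Ly6D+Gfra2- and 311 to 445 CPM in Ly6D-Gfra2-. Ldb1 was at 620 CPM in Ly6D+Gfra2- replicate 1 and between 106 and 199 CPM in the other 12 libraries. Of 10 paralogs 8 were tested and 0 called, and Tal2 and Zfpm2, the nearest relatives of Tal1 and Zfpm1, were at 0 in every library. The list held a pair of Lmo2 paralogs. Lmo4 was at 33.99 to 144 CPM, with log2 fold changes of 0.56 (SE 0.31), 0.02 (SE 0.40) and 0.58 (SE 0.36), in the order given for Lyl1. Lmo1 was at 0 to 6.27 CPM in Ly6D-Gfra2-, at 0 to 2.13 CPM in Ly6D+Gfra2- and at 0 in all 3 Ly6D+Gfra2+ libraries. Its log2 fold change in the first comparison was -2.19 (SE 2.55), and its adjusted p in the other two was 0.442 and 0.293 by edgeR.

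Stem and multipotent progenitor genes were read beside Lmo2, and 9 of 12 listed were tested. Cd34, a surface marker of early progenitors, was the 1 called as lower in Ly6D+Gfra2+ than in Ly6D-Gfra2-, by -2.62 on the log2 scale (SE 0.40; edgeR adjusted p = 0.00388). Without the libraries labelled replicates 3 and 5 it was -2.59 (edgeR adjusted p = 0.00402). Its levels ran from 234 to 686 CPM in Ly6D-Gfra2- and were 85.7, 64.7 and 38.9 CPM in Ly6D+Gfra2+, and the lowest of the former was again the library labelled replicate 3. The list's medians were -0.76, 0.32 and -0.95. In the same comparison 2 of 10 granulocyte and monocyte genes tested were called as lower, Mpo (myeloperoxidase) by -1.75 (SE 0.38; edgeR adjusted p = 0.0325) and S100a9, whose highest level was the 177 CPM of Ly6D-Gfra2- replicate 5. Without that library, or without both, 0 of the list were called, and Mpo was -1.86 without both (edgeR adjusted p = 0.0552). In the T-lineage list 1 of 3 tested was called as lower, Tcf7, a factor of early T cells, and 0 without both libraries (edgeR adjusted p = 0.107 for Tcf7). Of 4 endothelial and stromal genes 0 were called. Of 10 CLP and B-lineage genes 6 were called as higher there, the sort marker Gfra2 among them. Without both libraries 7 were called, and these held both sort markers, Gfra2 and Ly6d (edgeR adjusted p = 0.00952 and 0.00156). Cd79a, a chain of the B-cell receptor, was at 121, 84.6 and 254 CPM in Ly6D+Gfra2+ and at most 1.02 CPM in Ly6D-Gfra2-.

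The genes whose profile over the 13 libraries was most like that of Lmo2 were Arpc3, a subunit of the Arp2/3 actin complex, Zfp703, and Chchd4, a protein of mitochondrial import. Likeness was the root-mean-square difference of log2(CPM + 1) after centring each gene, and it was 0.320, 0.401 and 0.419 for these 3, against a median of 1.10 over 12721 genes. Arpc3 averaged 40.4, 25.3 and 14.9 CPM in Ly6D-Gfra2-, Ly6D+Gfra2- and Ly6D+Gfra2+. Zfp703 averaged 15.6, 9.60 and 2.96 CPM and Chchd4 39.0, 23.1 and 11.8 CPM, each in the same order of groups. These 3 were picked by likeness over the same libraries, so their falls are not independent of that of Lmo2. For Lyl1 the nearest were Rnf40 (0.270), Aldh18a1 (0.273) and Wdr36 (0.293), against a median of 0.954. For Tal1 they were Ndufa1 (0.485), Cnrip1 (0.499) and Mrps28 (0.517), against a median of 1.52. The nearest genes to Gfi1b (Gbp6 at 0.794), Zfpm1 (Gm11696 at 0.714) and Klf1 (Esam at 0.731) were farther off. All these points share libraries, depth and scaling, and none of the 8 members tested was among the 3 nearest genes of these 6.

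**Figure D5:**
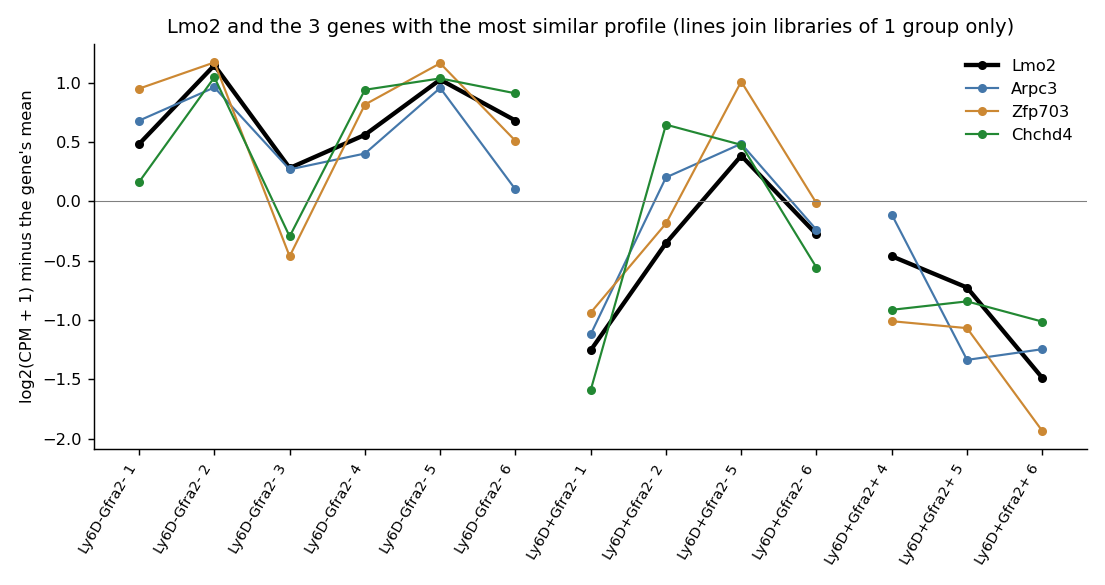
Profile of Lmo2 (thick black line) and of Arpc3, Zfp703 and Chchd4 over the 13 libraries, as log2(CPM + 1) minus the mean of each gene, with lines joining libraries of 1 group only. In the Ly6D+Gfra2+ libraries all 4 genes lie below their own mean, and Ly6D+Gfra2- replicate 1 is the lowest of its group for all 4. Arpc3, Zfp703 and Chchd4 were picked for their likeness to Lmo2 over these libraries.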

How the data were processed

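RNA sequencing of sorted mouse CLP gave 13 libraries. The deposited values are raw counts per RefSeq identifier, per the file headers. The submitters' processing notes name FastQC, HISAT, TopHat, HOMER, DESeq and the build mm10, with no role or order. The strand setting and the treatment of multiply mapping reads are not given in the sources used here. Of 24072 identifiers 23815 were named from RefSeq and 144 from GENCODE M21. The genes and lists were chosen with earlier results of these data known.

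Counts were tested with edgeR 4.0.16 (quasi-likelihood, TMM, group and name-letter terms, all 13 libraries in 1 fit). Genes passed filterByExpr (minimum count 10, minimum total 15), and a call needs a two-sided p under 0.05 after Benjamini-Hochberg adjustment over 12722 genes. The rule for named genes took all 9 members, the 3 nearest profiles of members that reach a group mean of 5 CPM, genes of each list that passed, otherwise up to 4 with the smallest p, and the markers of the sort. List genes given to describe 1 library (Epor, Slc4a1, Hbb-bs) were chosen after their values were seen. Alternatives were DESeq2 1.42.0, limma 3.58.1 voom, other scalings, no filter, no letter term, a replicate block, subsets and each library left out. The fit was tested on simulated data.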

Additional observations from a re-analysis of the deposited data

Results flagged for a closer look

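Among the 18 pairs of a member and a group of 4 or more libraries, 6 had 1 library set apart from the others by the gap between it and the next, measured against the whole range of the group. Chance flags about 1 in 20 such groups of normally distributed values, and its share among values mostly at 0 was not computed. Gata1 reached 2.48 CPM in 1 library, labelled Ly6D-Gfra2- replicate 3, and 1.73 CPM in Ly6D+Gfra2- replicate 6, with every other library of both groups at 0. Klf1 was at 7.31 CPM in Ly6D+Gfra2- replicate 2, with the other 3 libraries at 0. Zfpm1 was at 14.9 CPM in Ly6D-Gfra2- replicate 2, where the next was at 7.15 CPM, and at 10.3 CPM in Ly6D+Gfra2- replicate 2, where the next was at 1.22 CPM. Itga2b was at 4.18 CPM in Ly6D-Gfra2- replicate 1, where the next was at 0.595 CPM. Ly6D+Gfra2- replicate 2 was thus the highest of its group for both Klf1 and Zfpm1. The group of 3 Ly6D+Gfra2+ libraries was not examined in this way.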

How the results depend on the processing

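In the order Ly6D+Gfra2- against Ly6D-Gfra2-, Ly6D+Gfra2+ against Ly6D+Gfra2-, and Ly6D+Gfra2+ against Ly6D-Gfra2-, edgeR called 0, 52 and 177 genes. DESeq2 called 20, 545 and 789, limma voom 1, 23 and 107, and no filter on low counts gave 9, 164 and 318. The replicate block gave 8, 25 and 92, libraries of name T alone 1, 9 and 62, and those without Ly6D-Gfra2- replicate 5 (an alternative chosen after seeing the data) 2, 6 and 25. With the Ly6D-Gfra2- libraries labelled replicates 3 and 5 both left out it was 6, 23 and 57. Fitting only the 2 groups compared gave 8 and 72 in the last 2 comparisons, no letter term gave 103 in the middle one, and library size alone gave 111 in the last (45 higher and 66 lower, against 118 and 59 with TMM). Leaving out 1 library gave 0 to 16, 12 to 184 and 49 to 372.

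Of the members, 0 were called in the first 2 comparisons under any alternative. In the last, 1 was called (Lmo2), beside 177 of 12722 genes, and 2 with DESeq2, beside 789 of 12231 genes. None was called with limma voom, name T alone, name T without Ly6D-Gfra2- replicate 5, without both Ly6D-Gfra2- libraries, or with only the 2 groups compared. Leaving out 1 library gave 0 to 1. Lmo2 there was -1.80 with limma voom, -1.62 in name T, -1.47 in name T without Ly6D-Gfra2- replicate 5, -1.76 without both libraries and -1.61 in the 2 groups alone. Whether same-numbered libraries are paired was left undecided. After the group and letter terms were taken out, 9 same-numbered pairs had correlations of -0.226 to 0.00978, and other pairs of -0.261 to 0.252. Same-numbered libraries always share a letter, and taking out its term shifts such correlations, so they cannot decide it. With the replicate block Lmo2 there was -1.84 (edgeR adjusted p = 0.0370), and the block changed no call of a member.

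Signs turned in some comparison for every member tested but Lmo2, Lyl1 with its higher level included, and no change that turned was called. Gfi1b between the Ly6D+ groups was 0.53 with limma voom, 0.75 with the replicate block, 0.0295 in name T, 0.0298 there without Ly6D-Gfra2- replicate 5, 0.077 without both libraries and 0.0366 in the 2 groups alone. Against Ly6D-Gfra2-, Ly6D+Gfra2+ gave 0.11 and 0.26 for Gfi1b with limma voom and the block, -0.16 for Zfpm1 with limma voom, and -0.42 and -0.98 for Klf1 with limma voom and the block. Between Ly6D+Gfra2- and Ly6D-Gfra2-, Tal1 was 0.54 in name T and 0.50 there without Ly6D-Gfra2- replicate 5. Klf1 was 0.96 in name P and 3.42 there without the library labelled Ly6D-Gfra2- replicate 3, Itga2b -0.26 and -0.67, and Gata2 0.22 without both libraries. Leaving out 1 library gave -0.56 to 0.89 and -1.02 to 0.0032 for Gfi1b (Ly6D+ groups, and Ly6D+Gfra2- against Ly6D-Gfra2-), -2.08 to 0.35 for Gata2 and -0.62 to 0.20 for Tal1 in the latter. Lyl1 ran from -0.12 to 0.64 between the Ly6D+ groups and from -0.47 to 0.29 against Ly6D-Gfra2-, where Zfpm1 ran from -0.99 to 2.78. Klf1 ran from -5.84 to 10.04 and from -7.19 to 3.93, all but the last fitted against a group at 0. The cause of these shifts was not tested. Group means of all 9 members moved by less than 1 SD with library size alone, and with library size alone Wdr36 took rank 4 for Lyl1 while the other nearest genes stayed within the first 3. Other scalings moved the median of all genes to -0.15 and -0.25 (library size alone, last 2 comparisons). At these depths 3 counts are 0.114 CPM over the Ly6D+Gfra2+ group, so a lower level of Gata2 or Itga2b there was not detectable.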
